A study of Arabidopsis thaliana with 12 samples.

Results

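The 8 genes described here carry nitrate into and through the plant and reduce it to ammonium. They were chosen by name, as the listed loci NRT1.1, NRT1.5, NRT1.8, NRT2.1, NRT2.2, NIA1, NIA2 and NIR1, and all 8 were found among the 37336 genes of the expression table. Transcripts were measured by RNA-seq in 12 libraries of Arabidopsis thaliana seedlings, 3 in each of 4 groups. The 4 groups were CsPYL1_5m plants treated with 5 µM iSB09, mock-treated CsPYL1_5m plants, WT Col-0 plants treated with 5 µM iSB09, and mock-treated WT Col-0 plants. CsPYL1_5m plants are Col-0 plants that express an HA-tagged sweet orange ABA receptor, engineered to bind the synthetic ABA receptor agonist iSB09, from the constitutive 35S promoter as homozygous T3 progeny, and the sources used here do not say how many independent lines were sequenced. Mock treatment was 0.1% DMSO, samples were collected after 3 h, and the seedlings were grown in liquid medium to an age that the labels give as 12 days and the methods as 10 days. The study describes the 3 replicates as independent experiments. The question was what the ligand does to the transcriptome with and without the engineered receptor, and whether the receptor alone changes it.

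Roots take up nitrate through 2 families of carriers. NRT1.1, which also senses nitrate, works over a wide range of concentrations, whereas NRT2.1 and NRT2.2 are high-affinity carriers that act when nitrate is scarce. NRT1.5 loads nitrate into the xylem of the root and NRT1.8 takes it back out of the xylem sap. In the cytosol the nitrate reductases NIA1 and NIA2 convert nitrate to nitrite, and in the plastid the nitrite reductase NIR1 converts nitrite to ammonium, which glutamine synthetase then assimilates. ABA is the hormone of drought and seed dormancy, and nitrate transport and ABA signaling are known to be linked in roots.

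NRT2.1 (AT1G08090) and NRT2.2 (AT1G08100) lie tail to tail on chromosome 1, at chr1:2524023-2526322 on the plus strand and chr1:2527170-2529120 on the minus strand of TAIR10.1, with 847 bases between them and 3 exons each. Their upstream sequences are shown because these neighbouring copies, whose transcripts are alike in part, stood far apart in level. The 300 bases before each annotated start were read from the RefSeq genome, at chr1:2523723-2524022 for NRT2.1 and at chr1:2529121-2529420, on the minus strand, for NRT2.2. Capitals mark runs of at least 12 bases that both windows hold.
NRT2.1: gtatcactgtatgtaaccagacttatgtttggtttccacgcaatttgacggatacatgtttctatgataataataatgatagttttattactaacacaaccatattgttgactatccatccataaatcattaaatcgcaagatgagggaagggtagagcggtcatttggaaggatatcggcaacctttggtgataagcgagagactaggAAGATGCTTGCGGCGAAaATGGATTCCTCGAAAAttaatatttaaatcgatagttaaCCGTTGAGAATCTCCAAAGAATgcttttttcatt
NRT2.2: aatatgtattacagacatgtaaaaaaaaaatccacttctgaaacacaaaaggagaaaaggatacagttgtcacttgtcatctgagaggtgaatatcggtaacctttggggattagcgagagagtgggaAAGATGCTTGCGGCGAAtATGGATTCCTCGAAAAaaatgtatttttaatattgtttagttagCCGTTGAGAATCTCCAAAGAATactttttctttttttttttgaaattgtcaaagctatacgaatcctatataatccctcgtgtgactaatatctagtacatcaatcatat
The windows share 3 such runs, the longest of 22 bases, which cover 55 of the 300 bases. In the transcripts, 3.53% of the 100-base windows of NRT2.1 occur without a mismatch in NRT2.2, and 4.41% of those of NRT2.2 in NRT2.1. Reads that could not be placed uniquely were discarded by the study, so that a small share of the reads of these 2 genes may be missing.

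The core of the ABA-responsive element, ACGTG on either strand, was looked for in the same 300 bases upstream of each gene. It was present upstream of 1 of the 8 genes, NIA2, and in 25.6% of the 27443 protein-coding genes of the annotation. The window of NIA2 (AT1G37130) is chr1:14158152-14158451 on the plus strand, and capitals mark the match, which starts 10 bases before the annotated start.
NIA2: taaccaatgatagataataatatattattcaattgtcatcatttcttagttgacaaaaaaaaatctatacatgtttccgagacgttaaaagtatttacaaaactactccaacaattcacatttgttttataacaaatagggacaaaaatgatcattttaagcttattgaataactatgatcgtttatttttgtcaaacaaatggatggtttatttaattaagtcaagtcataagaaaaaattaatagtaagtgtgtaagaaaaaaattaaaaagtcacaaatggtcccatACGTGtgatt
The letters GAATC on either strand, a core bound by the GARP factors of the nitrate response, matched upstream of NRT2.1, NRT2.2, NIA1 and NIR1, and in 45.0% of all windows. NRT2.1 held 2 matches and NRT2.2 held 3, and 2 matches of each gene lie inside runs that the neighbours share. A match is a description of these letters in this window.

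The libraries of the 2 genotypes differed in depth. Reads on genes, recovered from the deposited values, numbered 25746050 to 30119966 in iSB09-treated CsPYL1_5m plants, 29158403 to 30696833 in mock-treated CsPYL1_5m plants, 21502003 to 21754261 in iSB09-treated WT and 21522480 to 21677392 in mock-treated WT, so that depth, or a batch behind it, cannot be told apart from the genotype. Replicate 2 of iSB09-treated WT stood apart, with an SD of the log2 difference of 0.521 and 0.432 from the other replicates of its group over 20081 genes, where the other pairs of replicates gave 0.207 to 0.356. Values without it are given where it moved a value of the 8 genes by over 1.5 times or changed a call, and for the further gene lists where it changed a count or a call in WT. The libraries held both organs: all 11 root markers and all 10 shoot markers were detected. Their summed levels were 273 to 303 TPM (root) and 19141 to 23878 TPM (shoot) in iSB09-treated CsPYL1_5m plants, against 300.1 to 327 TPM and 23848 to 28471 TPM in mock-treated CsPYL1_5m plants. In iSB09-treated WT they were 224 to 272 TPM (root) and 21347 to 27588 TPM (shoot), against 241 to 290 TPM and 26727 to 29015 TPM in mock-treated WT. In bulk seedlings, fewer cells of a type and less RNA per cell cannot be told apart. All 9 ABA response markers rose with iSB09 in both genotypes, to a summed 4345 to 5545 TPM in CsPYL1_5m plants, against 100.2 to 107 TPM in their mock samples, and to 516 to 563 TPM in WT, against 102 to 115 TPM. The transgene is not a row of the table, so that its own transcript was not analysed here.

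Levels are given in TPM, which are scaled by gene length and by the total of the library and can be compared between genes. Tested genes had 1 TPM or more in every replicate of a group compared. Calls needed a change of more than 1 in either direction on the log2(TPM + 0.5) scale and an adjusted p below 0.05 (limma, Benjamini-Hochberg over all genes tested). Of the 8 genes, 7 passed the filter in every comparison, and NRT2.2 passed in none. In mock-treated WT the order of the mean levels was NIA2 (747 ± 46.9 TPM), NIR1 (569 ± 97.1), NIA1 (438 ± 86.2), NRT1.1 (359 ± 30.4), NRT2.1 (37.8 ± 1.6), NRT1.5 (30.2 ± 4.37) and NRT1.8 (24.9 ± 2.57 TPM, SD, n = 3 each). Of neighbours in this order, the libraries overlapped for NIR1 and NIA1 and for NIA1 and NRT1.1, and the lowest NRT1.5 library (26.9 TPM) was next to the highest NRT1.8 library (26.8 TPM). NIA2 ranked 132 among the 25379 genes detected in that group. In iSB09-treated CsPYL1_5m plants NRT2.1 left this order and came last of the 7 genes. The mean of NRT1.8 (48.4 TPM) was above that of NRT1.5 (45.0 TPM) there, with libraries that overlapped.

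**Figure D1:**
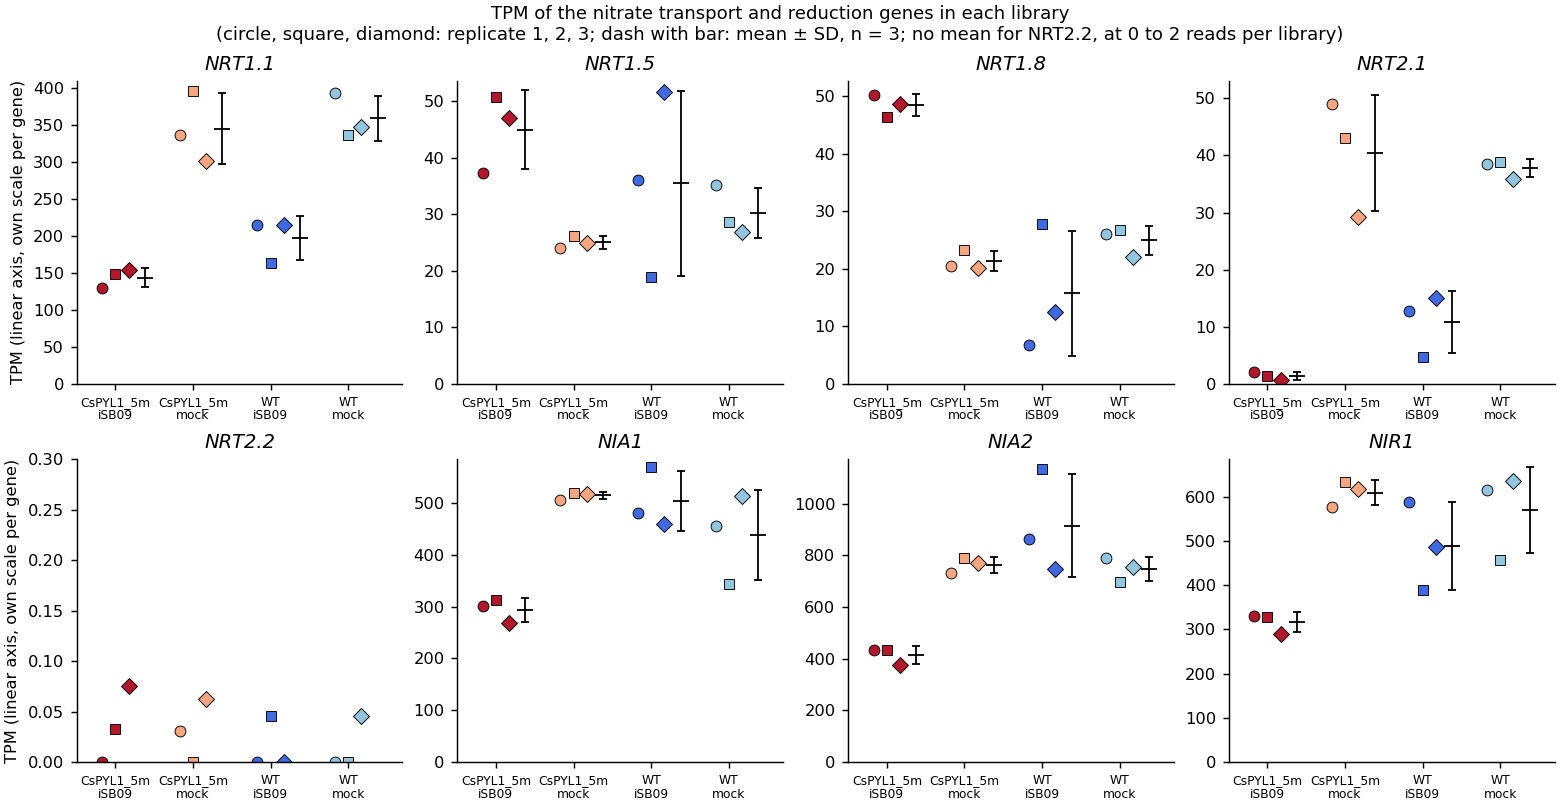
TPM of the 8 genes in each of the 12 libraries, in a panel per gene with its own linear axis from 0; circles, squares and diamonds are replicates 1, 2 and 3, and the dash with a bar is the mean ± SD (n = 3), left out for NRT2.2. NRT2.1 sits at 0.764 to 2.15 TPM in iSB09-treated CsPYL1_5m plants, below the 29.2 to 48.9 TPM of their mock libraries, and the reductase genes are lower in iSB09-treated CsPYL1_5m plants than in any other library.

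With iSB09 and the engineered receptor, NRT2.1 and NRT1.1, the carriers of nitrate uptake among the 7 tested genes, fell and the xylem-unloading carrier NRT1.8 rose. These were 3 of the 7 tested genes, where 17.5% of all 19862 tested genes were called, 9.17% higher and 8.35% lower. The other 4 genes moved by less than the 2-fold threshold. All 7 genes had an adjusted p below 0.05 and groups that did not overlap, but so did 66.4% and 71.9% of all tested genes. Over all tested genes the median change was -0.16 on the log2 scale, and -0.0045 after median-ratio scaling of the libraries, when 2150 genes were called higher and 1208 lower in place of 1821 and 1659.

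NRT2.1, the main carrier of high-affinity uptake, had 2.15, 1.34 and 0.764 TPM in iSB09-treated CsPYL1_5m plants, against 48.9, 43.1 and 29.2 TPM in mock-treated CsPYL1_5m plants. The lowest of the mock libraries was thus far above the highest of the treated ones. The treated libraries still held 84, 50 and 25 reads of the gene, above the floor of 3 reads. The mean was 1.42 ± 0.694 TPM under iSB09 and 40.4 ± 10.2 TPM in mock samples (SD, n = 3 each), 28.6-fold lower. On the log2 scale NRT2.1 changed by -4.45 (SE 0.266, adjusted p = 9.21e-07, limma), and by -4.31 after median-ratio scaling. By mean level it ranked 18904 among 25637 detected genes in iSB09-treated CsPYL1_5m plants and 4664 among 25733 in their mock samples.

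NRT2.1 also fell in WT, where it was the only gene called among the 7 and where 3.82% of 19612 tested genes were called, 2.28% higher and 1.54% lower. Its levels were 12.8, 4.68 and 15.1 TPM in iSB09-treated WT, against 38.6, 38.8 and 35.9 TPM in mock-treated WT. Replicate 2 of iSB09-treated WT was the lowest library, and the groups did not overlap. In WT this held for 2 of the 7 genes, NRT2.1 and NRT1.1, and for 38.7% of all tested genes. The log2 fold change was -1.90 (SE 0.372, adjusted p = 0.0173, limma), 3.48-fold lower by the means. Without replicate 2 of iSB09-treated WT it was -1.41 (adjusted p = 0.000230), and the adjusted p was 0.0744 without mock replicate 2 and 0.0776 without mock replicate 3, so that the call was lost. The fall was larger in CsPYL1_5m plants: the log2 fold changes differed by -2.55 (SE 0.522, adjusted p = 0.00343, limma interaction), and by -3.04 without replicate 2 of iSB09-treated WT. Between the iSB09-treated groups NRT2.1 was lower in CsPYL1_5m plants than in WT by 7.66-fold (log2 fold change -2.48, SE 0.449, adjusted p = 0.00382, limma).

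NRT2.2, the neighbour with the similar transcript, gave no measurable level. It had 0, 1 and 2 reads in iSB09-treated CsPYL1_5m plants, against 1, 0 and 2 reads in mock-treated CsPYL1_5m plants, and 0, 1 and 0 reads in iSB09-treated WT, against 0, 0 and 1 read in mock-treated WT. No library reached the floor of 3 reads, which is worth 0.0927 to 0.138 TPM for this gene, so that a response to iSB09 was not detectable at this depth. NRT3.1 (AT5G50200), the partner protein that NRT2 carriers need at the membrane, was looked at after its values were seen. It had 112, 113 and 129 TPM in iSB09-treated CsPYL1_5m plants, against 143, 192 and 133 TPM in mock-treated CsPYL1_5m plants, and 114, 199 and 125 TPM in iSB09-treated WT, against 123, 157 and 142 TPM in mock-treated WT. NRT3.1 was not called, at log2 fold changes of -0.39 with the engineered receptor and 0.02 in WT. In CsPYL1_5m plants all its treated libraries were below all its mock libraries, where groups did not overlap for 71.9% of all tested genes. In WT its groups overlapped.

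NRT1.1 (AT1G12110, chr1:4105223-4109601, plus strand, 5 exons), the dual-affinity carrier and nitrate sensor, fell with iSB09 in CsPYL1_5m plants. It had 129, 148 and 153 TPM in iSB09-treated CsPYL1_5m plants, against 337, 396 and 302 TPM in mock-treated CsPYL1_5m plants. In WT it had 215, 164 and 215 TPM under iSB09, against 393, 336 and 347 TPM in mock samples. In both genotypes every treated library was below every mock library. In CsPYL1_5m plants the log2 fold change was -1.26 (SE 0.107, adjusted p = 8.98e-06, limma), 2.4-fold lower by the means, and -1.09 after median-ratio scaling. In WT it was -0.87 (SE 0.127, adjusted p = 0.00703, limma), 1.82-fold lower and short of the 2-fold threshold. The responses of the 2 genotypes were not shown to differ, at -0.39 (SE 0.180, adjusted p = 0.118, limma interaction, 95% interval of -0.78 to 0.0049). Without replicate 2 of iSB09-treated WT that difference was -0.52 (adjusted p = 0.0217), still under the threshold of size.

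NRT1.8 (AT4G21680, chr4:11517353-11519805, minus strand, 4 exons), which removes nitrate from the xylem sap, rose with iSB09 in CsPYL1_5m plants. It had 50.3, 46.4 and 48.7 TPM in iSB09-treated CsPYL1_5m plants, against 20.5, 23.3 and 20.2 TPM in mock-treated CsPYL1_5m plants. All treated libraries were higher, and within each group the libraries lay close together. The log2 fold change was 1.17 (SE 0.0753, adjusted p = 1.47e-06, limma), a ratio of means of 2.27, and 1.33 after median-ratio scaling.

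In WT the treated libraries of NRT1.8 were far from each other, with 6.85, 27.9 and 12.5 TPM under iSB09, against 26.0, 26.8 and 22.0 TPM in mock samples. Replicates 1 and 3 lay below all mock libraries and replicate 2, the library that stood apart over all genes, lay above them. The summed root markers were at 224 TPM in replicate 2, against 261 and 272 TPM in replicates 1 and 3, and the part of this in the NRT1.8 values was not tested. The log2 fold change of -0.86 (SE 0.425, 95% interval -1.85 to 0.13) was not called (adjusted p = 0.214, limma). Without replicate 2 it was -1.37 and called (adjusted p = 0.00629, limma). The response of CsPYL1_5m plants was higher than that of WT by 2.03 on the log2 scale (SE 0.479, adjusted p = 0.00750, limma interaction), and by 2.54 without that library. Under iSB09, NRT1.8 was higher in CsPYL1_5m plants than in WT, with no overlap and a ratio of means of 3.08 (log2 fold change 1.81, SE 0.429, adjusted p = 0.0114, limma).

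NRT1.5 (AT1G32450, chr1:11715147-11719988, minus strand, 6 exons), which loads the xylem with nitrate, was not called in any comparison. It had 37.3, 50.7 and 46.9 TPM in iSB09-treated CsPYL1_5m plants, against 24.0, 26.2 and 24.8 TPM in mock-treated CsPYL1_5m plants. These groups did not overlap, and the log2 fold change was 0.82 (SE 0.109, adjusted p = 0.000148, limma), or 0.98 after median-ratio scaling, just under the threshold of size. In WT it had 36.0, 18.9 and 51.6 TPM under iSB09, against 35.2, 28.6 and 26.9 TPM in mock samples. Replicate 2 was again the odd one, as the lowest of the treated WT libraries. The log2 fold change in WT was 0.13 (SE 0.324, adjusted p = 0.824, limma), and it was 0.51 (adjusted p = 0.0838) without replicate 2 and -0.20 without replicate 3 of iSB09-treated WT. The difference between the responses was 0.70 (SE 0.380, adjusted p = 0.179, limma interaction). It was 0.31 (adjusted p = 0.291) without that replicate 2, and 1.02 (adjusted p = 0.0287), past both thresholds, without that replicate 3. The ratio of NRT1.8 to NRT1.5, the xylem-unloading over the xylem-loading carrier, was 1.1 ± 0.224 in iSB09-treated CsPYL1_5m plants and 0.852 ± 0.0371 in mock-treated CsPYL1_5m plants (SD, n = 3 each). In WT it was 0.191, 1.47 and 0.243 in the iSB09-treated libraries, against 0.739, 0.938 and 0.819 in the mock libraries, so that replicate 2 lay above all mock libraries and replicates 1 and 3 below them. This ratio lay between 0.915 and 1.35 in the treated CsPYL1_5m libraries and between 0.814 and 0.888 in their mock libraries.

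Counting did not use the strand, and both xylem genes overlap a neighbour on the other strand. NRT1.5 shares 16 exon bases (0.722%) with PKp3 and NRT1.8 shares 44 exon bases (2.01%) with CPL1. In CsPYL1_5m plants PKp3 changed by 0.11 on the log2 scale (adjusted p = 0.104, limma) and CPL1 by -0.28 (adjusted p = 0.00511, limma). Neither neighbour was called. The change of CPL1 had the opposite sign to that of NRT1.8, and the change of PKp3 had the same sign as that of NRT1.5. The part of the shared bases in the values of NRT1.5 and NRT1.8 was not tested.

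**Figure D2:**
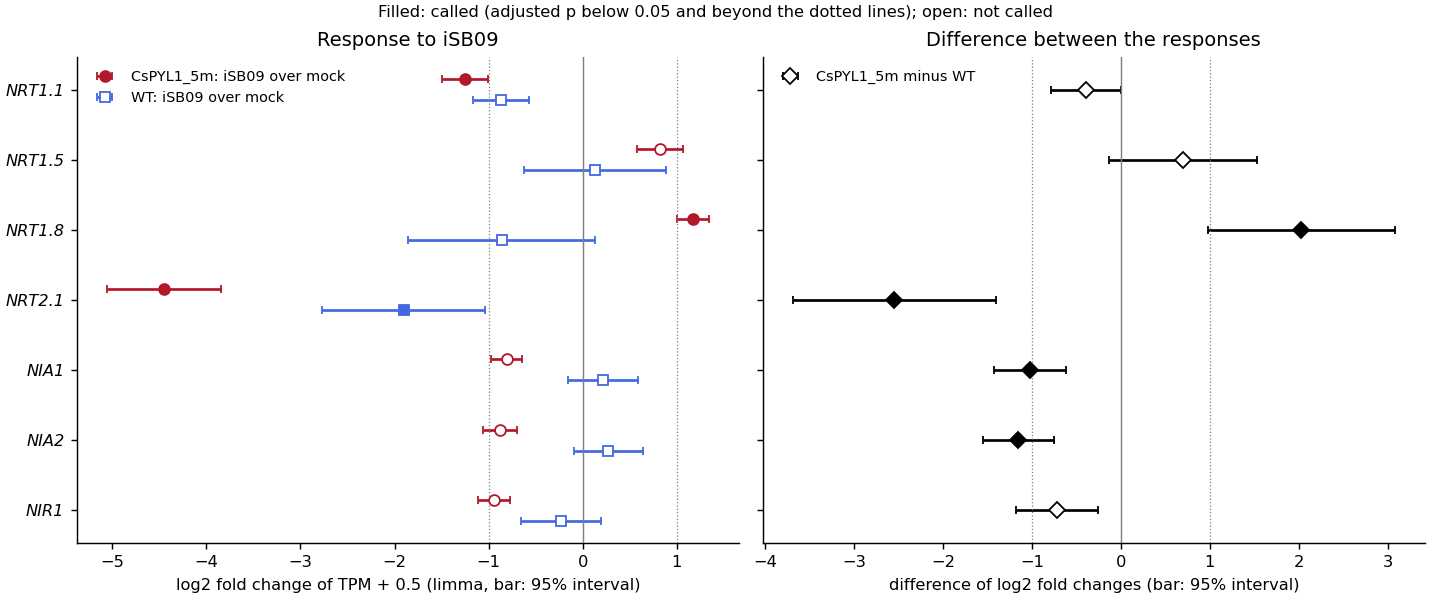
log2 fold changes of TPM + 0.5 from limma with 95% intervals for the 7 tested genes: on the left iSB09 over mock in CsPYL1_5m plants (circles) and in WT (squares), on the right the difference between the 2 responses (diamonds), with filled symbols for genes called. NRT2.1 lies farthest below 0 in both genotypes (-4.45 and -1.90), and NRT1.8 is above 0 in CsPYL1_5m plants (1.17) and below 0, uncalled, in WT (-0.86).

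The 3 reductase genes had the highest levels of the 8 in mock samples and were lower with iSB09 in CsPYL1_5m plants by less than 2-fold, so that none of them was called there. NIA2 had 435, 435 and 374 TPM in iSB09-treated CsPYL1_5m plants, against 730, 788 and 769 TPM in mock-treated CsPYL1_5m plants. NIA1 (AT1G77760, chr1:29235721-29239484, minus strand, 4 exons) had 302, 312 and 268 TPM in iSB09-treated CsPYL1_5m plants, against 507, 519 and 517 TPM in mock-treated CsPYL1_5m plants. NIR1 (AT2G15620, chr2:6810395-6812941, plus strand, 4 exons) had 331, 328 and 290 TPM in iSB09-treated CsPYL1_5m plants, against 577, 633 and 616 TPM in mock-treated CsPYL1_5m plants. For each gene the 3 treated libraries were below the 3 mock libraries. The log2 fold changes were close to each other, at -0.88 for NIA2 (SE 0.0803, adjusted p = 1.37e-05), -0.81 for NIA1 (SE 0.0731, adjusted p = 1.30e-05) and -0.95 for NIR1 (SE 0.0759, adjusted p = 5.99e-06, limma). After median-ratio scaling they were -0.72, -0.64 and -0.78.

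In WT none of the reductase genes was called. NIA2 (chr1:14158452-14161938, plus strand, 3 exons) had 861, 1134 and 748 TPM under iSB09, against 790, 697 and 754 TPM in mock samples. NIA1 had 481, 570 and 460 TPM under iSB09, against 455, 344 and 514 TPM in mock samples. NIR1 had 589, 389 and 486 TPM under iSB09, against 614, 458 and 636 TPM in mock samples. The groups overlapped for all 3 genes, and replicate 2 of iSB09-treated WT had the highest NIA1 and NIA2 and the lowest NIR1 of its group. The log2 fold changes in WT were 0.27 for NIA2 (adjusted p = 0.279), 0.21 for NIA1 (adjusted p = 0.403) and -0.23 for NIR1 (adjusted p = 0.440, limma), all with an unadjusted p above 0.05. Without replicate 2 of iSB09-treated WT they were 0.11 for NIA2, 0.12 for NIA1 and -0.074 for NIR1, and none was called.

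The responses of the nitrate reductase genes differed between genotypes. The difference in log2 fold change, CsPYL1_5m minus WT, was -1.15 for NIA2 (SE 0.184, adjusted p = 0.000712) and -1.02 for NIA1 (SE 0.186, adjusted p = 0.00160, limma interaction). With NRT2.1 and NRT1.8 these were 4 genes called of 7, where 9.63% of 20081 tested genes were called, 6.03% higher and 3.6% lower. The size of the 2 reductase differences sat at the threshold: after median-ratio scaling they were -0.99 and -0.86, and without replicate 2 of iSB09-treated WT they were -0.99 and -0.93, in all cases no longer called although the adjusted p stayed below 0.05. The call of NIA1 was also lost with limma voom on the recovered reads (-1.0), without replicate 3 of iSB09-treated CsPYL1_5m plants (-0.96), and without replicate 2 of mock-treated WT (-0.86). The difference was -0.72 for NIR1 (SE 0.212, adjusted p = 0.0223, limma interaction), and -0.87 (adjusted p = 0.00308) without replicate 2 of iSB09-treated WT. After median-ratio scaling it was -0.55, with an adjusted p of 0.0590 (limma interaction), no longer below 0.05. NIR1 was not called in any of these cases.

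Between the iSB09-treated groups, NIA2 was 2.21-fold lower in CsPYL1_5m plants than in WT (log2 fold change -1.12, SE 0.157, adjusted p = 0.00131, limma), and -0.95 after median-ratio scaling, -0.96 without replicate 2 of iSB09-treated WT, which both end the call. NIA1 was at -0.77 (adjusted p = 0.00116) and NIR1 at -0.61 (adjusted p = 0.0133, limma), neither called. NRT2.1, NRT1.8 and NIA2 were thus the 3 genes called in this comparison, where 10.8% of 19656 tested genes were called, 6.3% higher and 4.49% lower. NRT1.1 was at -0.45 (adjusted p = 0.0211, limma), and at -0.28 (adjusted p = 0.101) after median-ratio scaling. NRT1.5 was at 0.44 (adjusted p = 0.301, limma), or 0.050 without replicate 2 of iSB09-treated WT. Over all tested genes the median between these groups was -0.17 on the log2 scale. The groups did not overlap for 6 of the 7 genes, NRT1.5 being the exception, and for 62.6% of all tested genes.

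**Figure D3:**
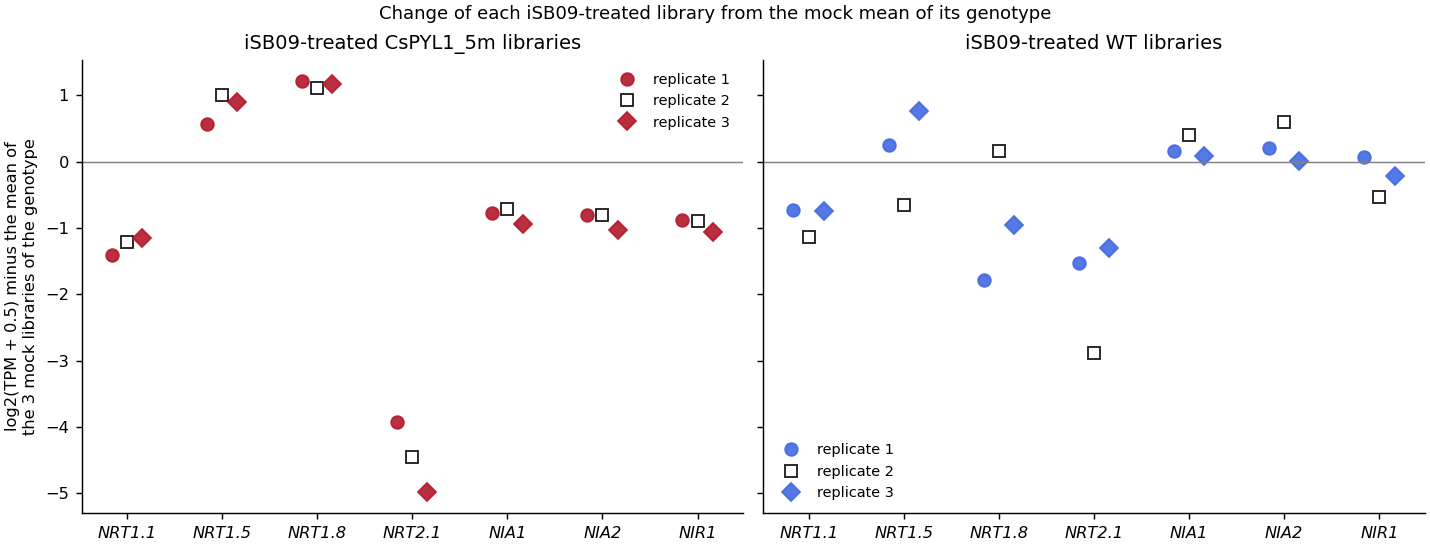
Change of each iSB09-treated library from the mean of the 3 mock libraries of its genotype, as a difference of log2(TPM + 0.5), for CsPYL1_5m plants (left) and WT (right); symbols are replicates. The 3 CsPYL1_5m libraries lie on the same side of 0 for each of the 7 tested genes, whereas replicate 2 of WT (open squares) departs from replicates 1 and 3 in NRT1.8 (0.16 against -1.79 and -0.96) and NRT2.1 (-2.89 against -1.52 and -1.30).

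The ratio of the 2 nitrate reductase transcripts moved little. NIA1 made up 41.5 ± 0.485% of the summed NIA1 and NIA2 level in iSB09-treated CsPYL1_5m plants and 40.3 ± 0.632% in mock-treated CsPYL1_5m plants (SD, n = 3 each). It made up 35.8 ± 2.31% in iSB09-treated WT and 36.7 ± 3.73% in mock-treated WT. The ratio of NRT1.1 to NRT2.1 ran from 60.1 to 201 in the iSB09-treated CsPYL1_5m libraries, against 6.88 to 10.3 in their mock libraries. In WT this ratio ran from 14.3 to 35.0 under iSB09, or to 16.8 without replicate 2, against 8.67 to 10.2 in mock samples. The summed level of the 8 genes was 1264 ± 72.0 TPM in iSB09-treated CsPYL1_5m plants and 2317 ± 98.4 TPM in mock-treated CsPYL1_5m plants, 0.126% and 0.232% of all TPM. In WT it was 2166 ± 163 TPM under iSB09 and 2206 ± 240 TPM in mock samples, and the libraries of these 2 groups overlapped.

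Without the ligand, none of the 7 genes was called between CsPYL1_5m plants and WT, where 0.0666% of 19530 tested genes were called (limma), 0.0512% higher and 0.0154% lower. The log2 fold changes ran from -0.26 (NRT1.5) to 0.25 (NIA1), and the lowest adjusted p was 0.550. NRT1.5 alone had an unadjusted p below 0.05 (0.0414) and groups that did not overlap, with 24.0, 26.2 and 24.8 TPM in mock-treated CsPYL1_5m plants, against 35.2, 28.6 and 26.9 TPM in mock-treated WT. Groups did not overlap for 14.8% of all tested genes. NRT2.1 averaged 40.4 ± 10.2 TPM in mock-treated CsPYL1_5m plants and 37.8 ± 1.6 TPM in mock-treated WT (SD, n = 3 each). Limma voom on the recovered reads called none of the 7 genes either.

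Other carriers of nitrate moved in both directions. Of 24 further nitrate transporter genes, 18 were tested in CsPYL1_5m plants, and 4 rose and 3 fell (median log2 fold change -0.19, against -0.16 over all tested genes, of which 17.5% were called). In WT 1 of 18 rose and 2 fell (median 0.07, against 0.01 over all tested genes, of which 3.82% were called). NPF6.2 (AT2G26690), the carrier known as NRT1.4 that governs nitrate storage in the petiole, had 226 ± 20.5 TPM in iSB09-treated CsPYL1_5m plants and 23.8 ± 2.45 TPM in mock-treated CsPYL1_5m plants (SD, n = 3 each). Its log2 fold change was 3.22 there (SE 0.0948, adjusted p = 1.34e-08) and 1.71 in WT (adjusted p = 0.00134, limma), so that it rose in both genotypes. NPF3.1 (AT1G68570), a carrier reported to move nitrite and gibberellin, rose in CsPYL1_5m plants (2.12, adjusted p = 4.04e-07) and was at 0.03 in WT, with a difference of 2.09 (adjusted p = 3.75e-05, limma interaction).

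The 3 genes of this list that fell were SLAH2, NPF2.7 and NPF1.2. SLAH2 (AT4G27970), an anion channel selective for nitrate, had 2.6 ± 0.445 TPM in iSB09-treated CsPYL1_5m plants and 17.6 ± 3.77 TPM in mock-treated CsPYL1_5m plants (SD, n = 3 each), a log2 fold change of -2.53 (adjusted p = 1.46e-06). NPF2.7 (AT3G45650), the nitrate excretion carrier NAXT1, had 7.26 ± 1.19 TPM in iSB09-treated CsPYL1_5m plants and 43.1 ± 10.1 TPM in mock-treated CsPYL1_5m plants, a log2 fold change of -2.48 (adjusted p = 1.76e-06, limma). Both also fell in WT, SLAH2 by 1.1 and NPF2.7 by 1.19 on the log2 scale. Further genes of the list were named after their values were seen. NPF1.2 (AT1G52190), a carrier of leaf veins, changed by -1.61 (adjusted p = 1.3e-05) in CsPYL1_5m plants and by 0.12 (adjusted p = 0.765, limma) in WT. Of other carriers known to release nitrate, NPF2.3 (AT3G45680) rose in CsPYL1_5m plants (1.44, adjusted p = 2.82e-06) and SLAH3 (AT5G24030) was at 0.72 there (adjusted p = 0.00188, limma), not called. CLCA (AT5G40890) was the remaining gene of the list that rose in CsPYL1_5m plants. It had 128, 133 and 139 TPM under iSB09 there, against 60.1, 58.8 and 56.2 TPM in mock samples. In WT it had 104, 123 and 102 TPM under iSB09, against 72.8, 51.7 and 56.6 TPM in mock samples, and was not called.

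The ammonium transporters AMT1;2, AMT1;3 and AMT2;1 fell in CsPYL1_5m plants. They were the 3 genes tested of 6 listed, with a median log2 fold change of -2.53, against -0.16 over all tested genes, of which 8.35% were called lower. AMT1;1 and AMT1;5 are listed at 0 in all 12 libraries, and AMT1;4 was below the filter. For a gene at 0 in every library, a silent gene and one that was not counted cannot be told apart. In WT 0 of the 3 were called, where all 3 had an unadjusted p below 0.05 (median -0.92, against 0.01 over all tested genes, of which 3.82% were called, limma). Without replicate 2 of iSB09-treated WT, 1 of the 3, AMT1;2, fell in WT (median -0.71). AMT1;2 (AT1G64780), which takes up ammonium through the root endodermis and cortex, had 8.22 ± 0.248 TPM in iSB09-treated CsPYL1_5m plants and 85.1 ± 20.2 TPM in mock-treated CsPYL1_5m plants (SD, n = 3 each). Its log2 fold change was -3.27 (adjusted p = 1.71e-07) there and -1.84 (adjusted p = 0.0823, limma) in WT, and the difference of -1.43 was not called (adjusted p = 0.135). Replicate 2 of iSB09-treated WT held 6.55 TPM of AMT1;2, against 40.4 and 29.8 TPM in replicates 1 and 3. Without it the log2 fold change in WT was -1.06 (adjusted p = 0.0177) and the difference was -2.20 (adjusted p = 0.000187, limma), both called. AMT1;3 (AT3G24300), a carrier of root hairs and the outer root, changed by -2.53 (adjusted p = 2.88e-08) in CsPYL1_5m plants and by -0.92 (adjusted p = 0.118, limma) in WT, a difference of -1.6 that was called (adjusted p = 0.00959). Without that library AMT1;3 was at -0.46 in WT and the difference was -2.06.

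Downstream of nitrite reduction, 2 of 13 tested genes of ammonium assimilation fell in CsPYL1_5m plants and 0 rose (median log2 fold change -0.22, against -0.16 over all tested genes), close to the 17.5% of all tested genes that were called. In WT 0 of 13 were called, where 4 had an unadjusted p below 0.05 (median 0.04, against 0.01 over all tested genes, of which 3.82% were called, limma). After median-ratio scaling 1 rose in CsPYL1_5m plants and 1 fell in WT. GLN1;2 (AT1G66200), a cytosolic glutamine synthetase, had 227 ± 4.65 TPM in iSB09-treated CsPYL1_5m plants and 931 ± 49.9 TPM in mock-treated CsPYL1_5m plants (SD, n = 3 each), a log2 fold change of -2.03 (adjusted p = 2.53e-08, limma). In WT the log2 fold change of GLN1;2 was -0.99 (adjusted p = 0.00400), just under the threshold of size. ASN2 (AT5G65010), an asparagine synthetase, fell in CsPYL1_5m plants (-1.75, adjusted p = 1.82e-06) and was at 0.02 in WT, a difference of -1.77 (adjusted p = 7.47e-05, limma interaction).

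The enzymes that supply cofactor and reductant to the 2 reductions moved as follows. Of 14 tested genes 6 fell and 0 rose in CsPYL1_5m plants (median log2 fold change -0.74, against -0.16 over all tested genes), where 8.35% of all tested genes were called lower and 9.17% higher. In WT 0 of 14 were called, where 8 had an unadjusted p below 0.05 (median -0.43, against 0.01 over all tested genes, of which 3.82% were called, limma). Limma voom called 1 of the 7 genes it could test in WT. G6PD3 (AT1G24280), a plastid glucose-6-phosphate dehydrogenase, had 17.3 ± 0.689 TPM in iSB09-treated CsPYL1_5m plants and 92.2 ± 16.5 TPM in mock-treated CsPYL1_5m plants (SD, n = 3 each), a log2 fold change of -2.37 (adjusted p = 2.68e-07, limma). UPM1 (AT5G40850), which makes the siroheme precursor for nitrite reductase, changed by -1.52 (adjusted p = 5.25e-06). In WT G6PD3 was at -0.98 (adjusted p = 0.00479), just under the threshold of size, and UPM1 at -0.36 (adjusted p = 0.153, limma). The difference between responses was called for these 2 of the 14 genes, both lower, where 3.6% of all tested genes were called lower. After median-ratio scaling 1 of the 14 was called. The other 4 genes that fell, named after their values were seen, were the root ferredoxin-NADP reductases RFNR1 (-1.30) and RFNR2 (-1.19) and the 6-phosphogluconate dehydrogenases PGD1 (-1.17) and PGD3 (-1.42).

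Among the regulators of the nitrate response, 2 of 31 tested genes rose and 4 fell in CsPYL1_5m plants (median log2 fold change 0.12, against -0.16 over all tested genes), a share near the 17.5% called over all tested genes. In WT 2 of 30 rose and 0 fell (median 0.08, against 0.01 over all tested genes, of which 3.82% were called). After median-ratio scaling 5 rose and 2 fell in CsPYL1_5m plants. LBD38 (AT3G49940) and LBD39 (AT4G37540), repressors of nitrate-responsive genes, fell in CsPYL1_5m plants, with log2 fold changes of -1.88 (adjusted p = 5.97e-08) and -1.36 (adjusted p = 2.93e-07, limma). In WT they were at -0.57 (adjusted p = 0.00511) and -0.76 (adjusted p = 0.0114, limma), lower but not called. The difference between responses was called for LBD38 (-1.31, adjusted p = 2.92e-06) and not for LBD39 (-0.60, adjusted p = 0.0108, limma interaction). BT1 (AT5G63160), a BTB and TAZ domain protein that lowers nitrate uptake genes, rose in CsPYL1_5m plants (2.44, adjusted p = 8.28e-08) and in WT (1.14, adjusted p = 0.0144, limma). NLP8 (AT2G43500), a factor of nitrate-promoted seed germination, rose in CsPYL1_5m plants (2.0, adjusted p = 1.59e-07) and was at 0.29 in WT. BT2 (AT3G48360), the close relative of BT1, was named after its values were seen: it rose in WT (1.64, adjusted p = 0.00333) and was at -0.16 in CsPYL1_5m plants, a difference of -1.80 (adjusted p = 9.80e-05, limma interaction).

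**Figure D4:**
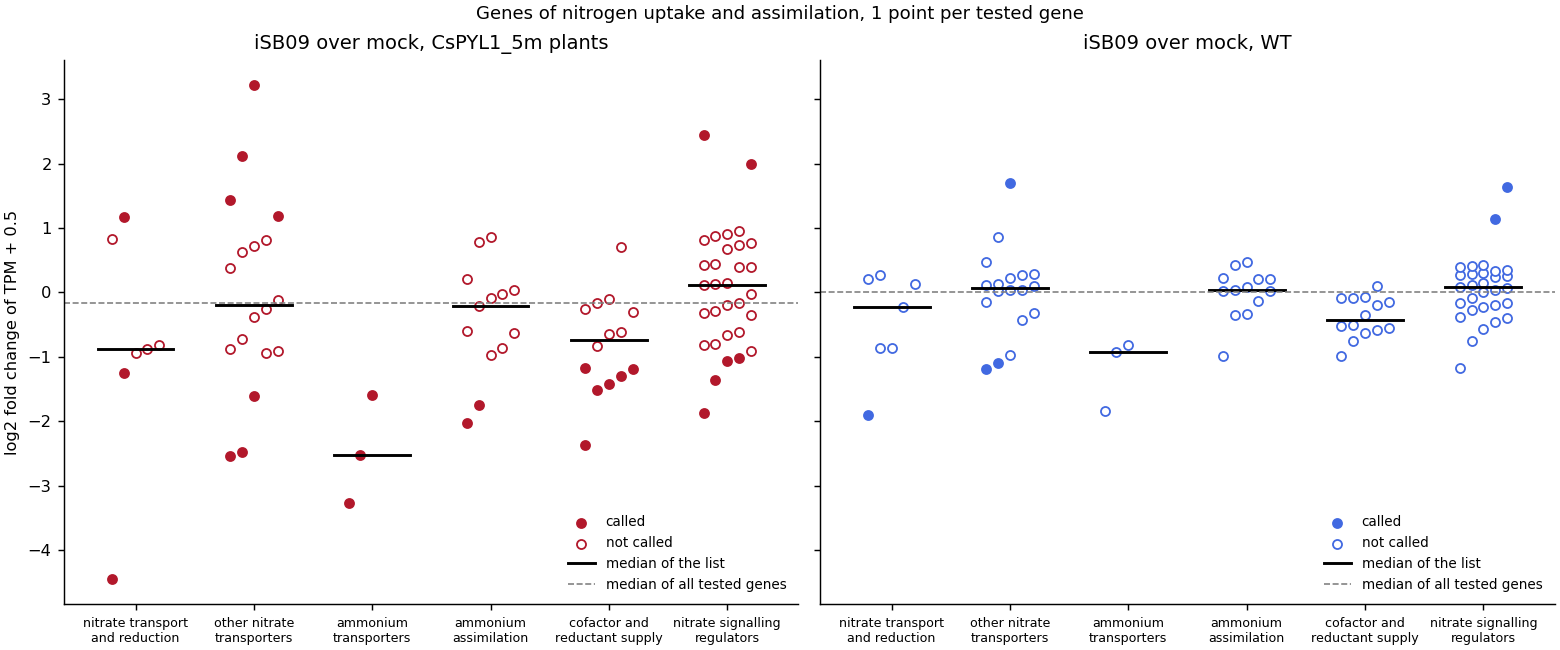
log2 fold change of TPM + 0.5 with iSB09 over mock for each tested gene of 6 lists, in CsPYL1_5m plants (left) and WT (right); filled points are called, bars are list medians and the dashed line is the median of all tested genes (-0.16 and 0.01). The 3 ammonium transporters lie lowest as a list in CsPYL1_5m plants (median -2.53), and nitrate transporters spread on both sides of 0.

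The root and shoot markers moved as follows beside these genes. Of 11 root markers 2 rose and 1 fell in CsPYL1_5m plants (median log2 fold change -0.08), beside 17.5% of all tested genes called, and 2 rose in WT (median -0.24), beside 3.82%. CASP5, of the Casparian strip, rose by 2.42 and TIP2;3, a root aquaporin, by 1.89 in CsPYL1_5m plants, while PHO1, which loads phosphate into the xylem, fell by 1.12 on the log2 scale, a call that median-ratio scaling ends. Of 10 shoot markers 0 were called in CsPYL1_5m plants (median -0.32, limma, with 7 at an unadjusted p below 0.05, and 0 of 9 with limma voom), and 1 rose in WT. The part of organ composition in the values of the nitrate genes was not tested.

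The profile of each gene over the 12 libraries was set beside those of 15793 genes with a mean of at least 5 TPM, by the root mean square difference of log2(TPM + 0.5) after each gene's mean was taken off. The nearest profile was that of AT4G38660 for NIR1 (0.0822), AT1G15410 for NRT1.1 (0.108), EMB3108 for NIA1 (0.110), GT2 for NIA2 (0.131), AT3G19680 for NRT1.5 (0.181), ORS1 for NRT1.8 (0.288) and AT5G03995 for NRT2.1 (0.357). Among the 7 genes themselves NIA1 and NIA2 were the closest pair (0.185), followed by NIA1 and NIR1 (0.245) and by NRT1.1 and NIR1 (0.296). NRT1.8 and NRT2.1 were the farthest apart (2.38). These distances describe the same 12 libraries and are not independent of the comparisons above.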

How the data were processed

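The authors trimmed the paired 100-base reads with cutadapt, mapped them to TAIR10 with HISAT2, kept pairs with 1 mapping position and used HTSeq-count with the Araport11 gene models. The authors deposited TPM values, which sum to the same total in each library, and RPKM values of the same genes. All columns of both tables were mapped to samples (0 were left out), and no replicates were pooled. The authors used DESeq2 on their counts. TPM and RPKM are not counts, and log2(TPM + 0.5) was therefore tested here with limma 3.58.1 (R 4.3.3, variance trend), which understates changes of low genes.

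Each comparison was fitted on its 6 libraries and the difference between responses on all 12. The filter (1 TPM) and the thresholds (adjusted p 0.05, log2 fold change 1) follow the study. Further steps used numpy 2.4.6, pandas 2.3.3 and matplotlib 3.10.9 under Python 3.11.15. Reads were recovered as RPKM times merged exon length of TAIR10.1: 72.6% of 27489 detected annotated genes, and all 8 genes described, came to whole reads in every library. The tolerance was 0.05 reads, and for genes with many reads it was wider, in proportion to their reads. The floor was 3 reads and covers counting error only. Of the table's genes 37051 matched the annotation, from which coordinates, exons and sequences were taken.

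On simulated data with 200 genes changed, 97.5% were recovered with 3 false calls among 19461 genes for iSB09 against mock in CsPYL1_5m plants, and 96.5% with 5 false calls among 19647 genes for the difference between responses. The planted changes were well past the threshold of size and were set only in genes above a minimum level. Noise was drawn independently for each library, with none that stood apart. The recovery therefore does not describe changes near the threshold or in low genes. Same-numbered iSB09 and mock libraries deviated together in WT (correlations across genes 0.157, 0.296 and 0.202) but not in CsPYL1_5m plants (0.111, -0.00990 and -0.128) or between genotypes. Differently numbered libraries in WT gave -0.268 to 0.164, so that the highest of them was above the lowest same-numbered value.

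The genes described and the gene lists were chosen with earlier results of these data known, so they are no independent evidence. Of each further list, the genes named were those called in CsPYL1_5m plants with the largest changes, at most 2 in each direction, with a mean of at least 1 TPM in a group. Genes named outside this rule are marked in the text, except that all listed ammonium transporters were named. Exon bases shared with a neighbour were looked for only in the genes described here, not in those of the further lists. Alternatives were other pseudocounts, filters and normalizations, RPKM, a fit without variance trend, a replicate block, 1 fit of all libraries, leaving out each library in turn and, chosen after seeing the data, limma voom on the recovered reads and, for the further lists, a fit without replicate 2 of iSB09-treated WT.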

Additional observations from a re-analysis of the deposited data

Results flagged for a closer look

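The response to iSB09 differed between CsPYL1_5m plants and WT, by the interaction test over all 12 libraries, for 4 of the 7 tested genes (limma). The difference in log2 fold change, CsPYL1_5m minus WT, was 2.03 for NRT1.8 and -2.55 for NRT2.1, and it was called for both under all alternatives run. It was -1.02 for NIA1 and -1.15 for NIA2, and for these 2 genes the call was lost under the alternatives given for the processing. NRT1.8 was higher than the mock mean of its genotype in 3 of 3 treated CsPYL1_5m libraries and in 1 of 3 treated WT libraries, replicate 2. All 6 CsPYL1_5m libraries were deeper than all 6 WT libraries, and the part of depth in these differences was not tested.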

How the results depend on the processing

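In CsPYL1_5m plants, all 126 alternative values of the 7 genes kept their direction and their side of the threshold. Over all comparisons 642 of 665 alternative values did so, 7 changed sign, 14 lost the call and 2 gained it. In WT, where 1 gene was called, leaving out 1 library gave 0 to 2 called genes. The 0 came without mock replicate 2 or 3 (limma, with 2 genes at an unadjusted p below 0.05 each time) and the 2 without replicate 2 of iSB09-treated WT. For the difference between responses, where 4 genes were called, median-ratio scaling gave 2, the replicate block with median-ratio scaling gave 2, and leaving out 1 library gave 2 to 5. Sign changes were all in uncalled values, and leaving out 1 library gave -0.20 to 0.51 for NRT1.5 in WT and, between genotypes in mock samples, -0.17 to 0.028 for NRT1.1, -0.088 to 0.28 for NRT2.1, -0.018 to 0.072 for NIA2 and -0.038 to 0.20 for NIR1. With quantile normalization NIA2 was at -0.0051 in mock samples. The causes were not tested. Of all genes, 448 were called higher and 302 lower in WT, against 289 and 198 without mock replicate 2 and 254 and 166 without mock replicate 3. Between genotypes in mock samples 10 genes were called higher and 3 lower, and the alternatives that moved these counts by over 1.5 times gave 1 to 6 higher and 1 lower. With median-ratio scaling, 1545 genes were called higher and 556 lower between the iSB09-treated groups in place of 1239 and 882, and 1489 and 466 for the difference between responses in place of 1211 and 722. With the replicate number as a block, which pairs libraries in WT, NRT2.1 in WT stayed at -1.90 (adjusted p = 0.0189, limma), and no call of the 7 genes changed in any comparison. Without replicate 2 of iSB09-treated WT, an alternative chosen after seeing the data for the further gene lists, AMT1;2 was the only listed gene outside the 7 whose call in WT changed. The reads of NRT2.2 stayed under the floor at this depth, and no fit at matched depth was run.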
